A study of Mus musculus with 12 samples.

Results

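The extracellular matrix genes described here are the collagen alpha chains, the laminin chains, fibronectin (Fn1), tenascin-C (Tnc) and the 4 lecticans versican (Vcan), neurocan (Ncan), brevican (Bcan) and aggrecan (Acan). They were chosen by symbol alone, as every gene named Col or Lam followed by a chain number, plus the other 6 by name, and 61 genes of the 54838 in the count tables fit: 44 collagen chains, 11 laminin chains and the other 6. All 61 had at least 10 counts in at least 3 of the 12 libraries, so 0 fell below that minimum, and all 61 were among the 31109 genes tested. RNA was sequenced from spinal cord of mice of postnatal day 60 in 4 groups of 3 libraries. Control mice were Olig1+/+;Tet1 fl/fl and Tet1 mutant mice were Olig1cre/+;Tet1 fl/fl, so both genotypes carried the floxed Tet1 alleles and only the mutant carried cre, driven from 1 Olig1 allele and therefore active in the oligodendrocyte lineage from development on. Each genotype was taken unlesioned, from the side of the cord opposite the injection, and at 4 days after injection of lysolecithin (4dpl), a lipid that strips myelin at the injection site. Mice of either sex were used. Cells were enriched for oligodendroglia on a Percoll density gradient, with no sorting, so other cell types remained.

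Collagens are built from 3 alpha chains wound into a triple helix. Fibrillar collagens such as types I and III form the tensile cables of connective tissue and scars, collagen IV and the laminins form the sheet-like basement membrane around blood vessels, and the lecticans are chondroitin sulfate proteoglycans that fill the space between cells of the brain and spinal cord. Healthy central nervous tissue holds little fibrillar collagen outside its vessels and meninges, while fibronectin and chondroitin sulfate proteoglycans are known to gather in demyelinated lesions, where both affect oligodendrocyte progenitors.

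Total counts were 34805086 to 67251544 per library. Levels are given as CPM, the usual depth-scaled count, here after TMM normalisation, and different genes are compared only as CPM per kb of exon. The Tet1 count did not separate the genotypes: it was 15.03, 14.9 and 18.3 CPM in the unlesioned control, 16.4, 9.94 and 12.1 CPM in the unlesioned mutant, 12.5, 11.7 and 12.04 CPM in the control at 4dpl and 13.4, 10.9 and 21.5 CPM in the mutant at 4dpl. That count covers the whole gene in all cells of the preparation while cre removes a single floxed exon in part of them, so the genotype rests on the labels. Olig1 was at 338, 234 and 211 CPM in unlesioned control and 293, 88.7 and 197 CPM in unlesioned mutant libraries, against 188, 201 and 199 and 192, 233 and 623 CPM at 4dpl. Replicate 3 of the mutant 4dpl group stood apart, with 13778 CPM per kb summed over 10 mature oligodendrocyte markers where the other 11 libraries lay between 2510.3 and 5973. The paper's methods give 3 biological replicates per condition for spinal cord RNA. No label says whether libraries of a group come from separate mice, so p-values measure the spread between libraries. Nor do the labels say whether an unlesioned and a lesioned library come from the same mouse, and the tests treat them as unpaired. In these bulk preparations a higher share of cells of one type and more RNA per cell cannot be told apart.

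A gene was called when edgeR's quasi-likelihood test gave a p-value below 0.01 and a Benjamini-Hochberg adjusted p below 0.05 over all genes tested. The stretches shown next lie upstream of a RefSeq start site of 5 members called in the control, 3 that were higher at 4dpl (Col1a2, Col3a1 and Col8a1) and 2 that were lower (Lama2 and Col25a1), so that the letters can be read beside the changes given afterwards. They come from RefSeq promoters on GRCm38.p6, which list 45 of the 61 members, and each is the longest run outside annotated exons among the 250 bases before the start site. Col1a2 is chr6:4505370-4505492 (plus strand), ending 126 bases before the start site. Col3a1 is chr1:45311288-45311537 (plus strand), Col8a1 chr16:57754738-57754987 (minus strand), Lama2 chr10:27616943-27617192 (minus strand) and Col25a1 chr3:130180595-130180844 (plus strand), all up to the base before the start site. The RefSeq start sites of Col3a1 and Col8a1 are the first bases of the genes as counted, while those of Col1a2, Lama2 and Col25a1 lie 804, 2816 and 49344 bases inside the counted gene, so these 3 stretches fall within the gene and precede a start other than its outermost one. All are written 5′ to 3′ along the gene. Capitals mark the TATA box word TATAAA, the CCAAT box word CCAAT and the GC box word GGGCGG, on either strand.
Col1a2: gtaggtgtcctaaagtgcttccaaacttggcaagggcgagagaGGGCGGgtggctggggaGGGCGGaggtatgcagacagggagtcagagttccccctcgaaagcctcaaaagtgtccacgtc
Col3a1: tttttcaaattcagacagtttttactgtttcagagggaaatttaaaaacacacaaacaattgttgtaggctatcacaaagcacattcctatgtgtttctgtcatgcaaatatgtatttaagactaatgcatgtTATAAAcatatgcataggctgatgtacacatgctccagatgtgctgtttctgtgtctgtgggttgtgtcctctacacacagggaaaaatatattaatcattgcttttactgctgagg
Col8a1: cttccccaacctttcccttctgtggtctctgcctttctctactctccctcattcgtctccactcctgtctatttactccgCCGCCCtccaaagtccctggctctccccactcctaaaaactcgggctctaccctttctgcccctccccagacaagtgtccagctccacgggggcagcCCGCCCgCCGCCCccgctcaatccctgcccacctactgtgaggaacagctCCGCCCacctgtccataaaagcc
Lama2: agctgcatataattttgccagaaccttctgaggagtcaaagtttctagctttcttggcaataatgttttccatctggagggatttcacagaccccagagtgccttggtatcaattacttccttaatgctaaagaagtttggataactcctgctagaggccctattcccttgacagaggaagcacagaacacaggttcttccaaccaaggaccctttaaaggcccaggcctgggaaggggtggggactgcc
Col25a1: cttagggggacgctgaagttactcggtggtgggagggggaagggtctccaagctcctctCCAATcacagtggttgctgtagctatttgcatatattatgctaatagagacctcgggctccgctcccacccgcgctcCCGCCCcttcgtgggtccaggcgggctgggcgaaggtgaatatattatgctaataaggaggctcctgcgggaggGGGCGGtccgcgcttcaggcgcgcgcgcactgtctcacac

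Col3a1 holds the TATAAA word 1 time and neither of the other words in this window. Col8a1 holds GGGCGG 4 times and Col25a1 2 times, Col1a2 2 times within its shorter run, and Lama2 has none of the 3 words. Over the 250 upstream bases, TATAAA was found in 7 of the 45 listed members (15.6%) and in 13.00% of all 27025 promoters, CCAAT in 16 (35.6%) and 34.5%, and GGGCGG in 28 (62.2%) and 32.9%. The 3 words do not share letters in an overlapping match with one another in the stretches shown, and a match here is a description of letters only.

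With the lesion, fibrillar collagens I and III, fibronectin and the laminin beta 2 chain went up while many low collagen and laminin chains went down. With both genotypes averaged, 7 of the 61 members were called higher at 4dpl (11.5%, beside 14.2% of all genes tested) and 21 lower (34.4%, beside 18.6%). The 7 were Col1a1, Col1a2, Col3a1, Col8a1, Col14a1, Fn1 and Lamb2. The median log2 fold change over the members was -0.07, and -0.28 over all genes tested. Within the control alone, 6 members were called higher (9.84%, background 5.12%) and 8 lower (13.1%, background 5.01%).

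In the Tet1 mutant 0 members were called in either direction, where all genes gave 0.0225% higher and 0.113% lower, or 7 and 35 genes. At an unadjusted p under 0.05, 12 members were higher (background 15.9%) and 17 lower (background 17.9%) in the mutant, and 11 (background 13.9%) and 20 (background 20.1%) in the control. DESeq2 called 1 member higher, Fn1 (background 4.28%), and 14 lower (background 12.7%) in the mutant. By position of the libraries, 10 members had every control 4dpl library above every control unlesioned one (background 16.5%) and 19 had them all below (background 21.4%). The same held for 10 higher (background 18.8%) and 21 lower (background 23.2%) in the mutant. Col1a1 and Fn1 were separated upwards in both genotypes (background 11.0%), and 14 members downwards in both (background 10.6%). The sign of the change was shared by the genotypes in 49 of 61 members (80.3%) and 83.2% of all genes.

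The control calls rest on few libraries: without control unlesioned replicate 2 or 3, or without control 4dpl replicate 1 or 2, 0 members were called in the control in either direction, while over all genes at most 81 higher and 33 lower calls were left. Leaving out mutant unlesioned replicate 3 left 3 higher in the control, Col1a1, Col1a2 and Col3a1, and 3 lower. All genes then gave 502 higher and 378 lower in the control, instead of 1592 and 1558. Without control unlesioned replicate 1 the control gave 14 lower (3277 over all genes). Without control 4dpl replicate 3 or mutant 4dpl replicate 2 it gave 5 (903 and 1002 over all genes). In the mutant, leaving out control unlesioned replicate 1 gave 1 higher and 10 lower, and leaving out mutant unlesioned replicate 1 gave 6 and 7, and the latter raised the averaged count of higher members from 7 to 13. Over all genes, higher calls in the mutant went from 7 to 2615 in the first of these fits and 2135 in the second. Lower calls went from 35 to 1883 and 1295. The averaged higher calls over all genes went from 4423 to 5005 in the second. No other single library moved these counts of members by more than 1.5 times.

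**Figure D1:**
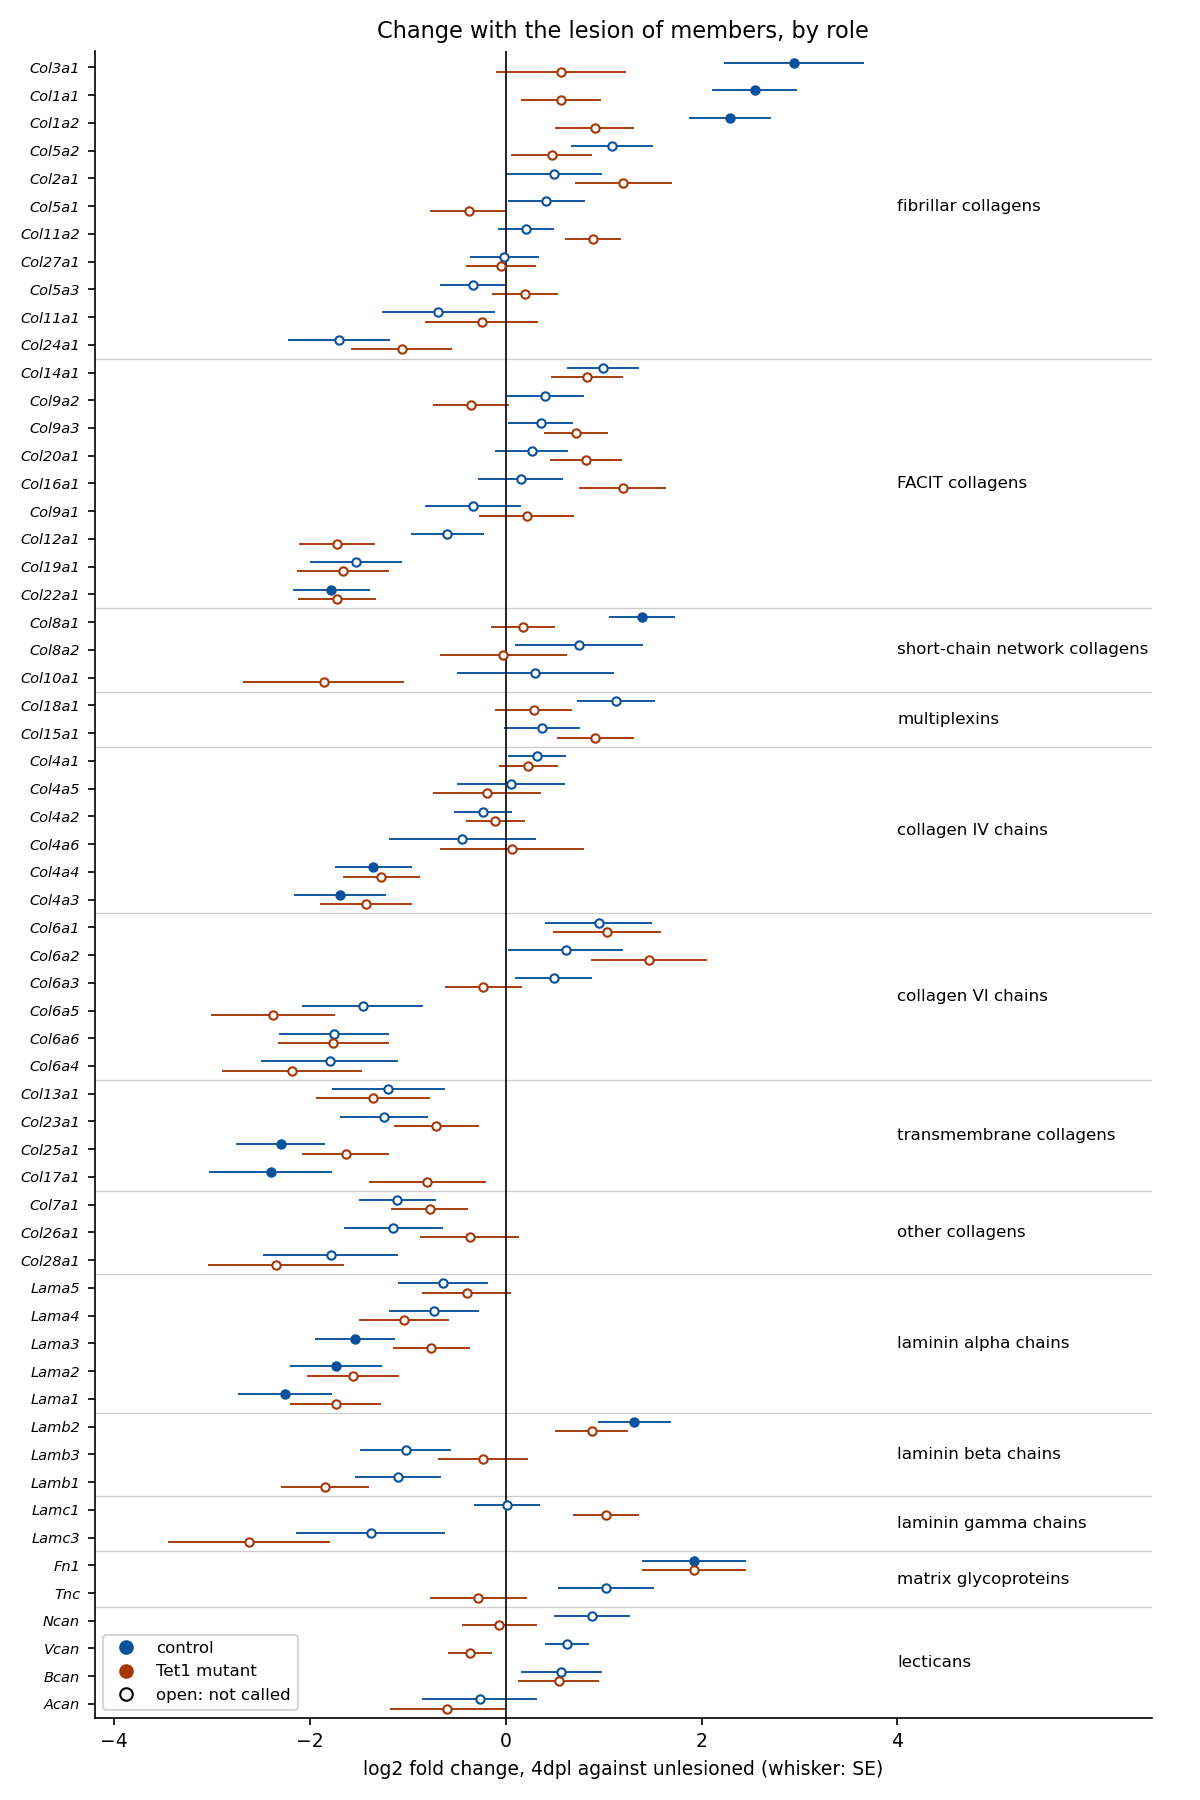
Log2 fold change at 4dpl against unlesioned (horizontal axis, with its SE as a whisker) of the members reported by name, grouped by role from top to bottom, in the control (blue) and the Tet1 mutant (brown), filled where called. In the control, filled points lie to the right for Col1a1, Col1a2, Col3a1, Col8a1, Lamb2 and Fn1 and to the left for 8 members, and in the mutant no point is filled.

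Collagens I and III rose in the control, by more than any other member called higher there. Col1a1 stood at 8.19, 3.34 and 3.17 CPM in the 3 control unlesioned libraries and at 22.6, 46.1 and 17.02 CPM in the 3 control 4dpl libraries. The mutant libraries had 6.504, 6.39 and 9.01 CPM unlesioned and 13.7, 9.34 and 9.39 CPM at 4dpl. The 4dpl libraries were above the unlesioned ones in both genotypes, and replicate 2 of the control 4dpl group was the highest of the 12. The change in the control was 2.54 ± 0.43 on the log2 scale (SE, adjusted p = 0.0219), a 5.83-fold rise, and 0.56 ± 0.41 in the mutant (adjusted p = 0.329). Without control 4dpl replicate 2 the control change was 2.03 (edgeR's quasi-likelihood test, Benjamini-Hochberg adjusted p = 0.0798), with no call left. With each library left out in turn, the control change ranged from 2.03 to 3.16. Col1a1, the alpha 1 chain of type I collagen, lies on GRCm38 chromosome 11, 94936224 to 94953042.

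Col1a2 stood at 9.05, 6.59 and 8.32 CPM in the 3 control unlesioned libraries and at 27.6, 62.9 and 26.99 CPM in the 3 control 4dpl libraries. The mutant libraries had 12.4, 5.51 and 16.5 CPM unlesioned and 18.6, 16.5 and 29.5 CPM at 4dpl. Control groups were again apart, whereas in the mutant the highest unlesioned value (16.5 CPM) met the lowest 4dpl value (16.5 CPM). Col1a2, the partner chain of Col1a1 in type I collagen (chromosome 6, 4504814 to 4541544), rose by 2.29 ± 0.42 in the control (log2, SE, adjusted p = 0.0244), and its mutant change was 0.91 ± 0.40 (adjusted p = 0.134). For Col3a1 the control libraries had 12.5, 2.34 and 5.51 CPM unlesioned and 33.8, 82.9 and 40.4 CPM at 4dpl, and the mutant libraries 10.9, 2.27 and 22.7 and 24.4, 12.8 and 15.9 CPM. Here the control groups did not overlap and the mutant groups did, with unlesioned replicate 3 of the mutant near its 4dpl libraries. Col3a1, the only chain of type III collagen, which accompanies type I in young scar (chromosome 1, 45311538 to 45349706), rose 7.699-fold in the control (2.94 ± 0.71 on the log2 scale, SE, adjusted p = 0.03399) and was at 0.57 ± 0.67 in the mutant (adjusted p = 0.553). Control 4dpl replicate 2 was again the highest, and without it the control change of Col3a1 was 2.46 (edgeR's quasi-likelihood test, Benjamini-Hochberg adjusted p = 0.0953). With each library left out in turn, that change ranged from 2.46 to 3.76.

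**Figure D2:**
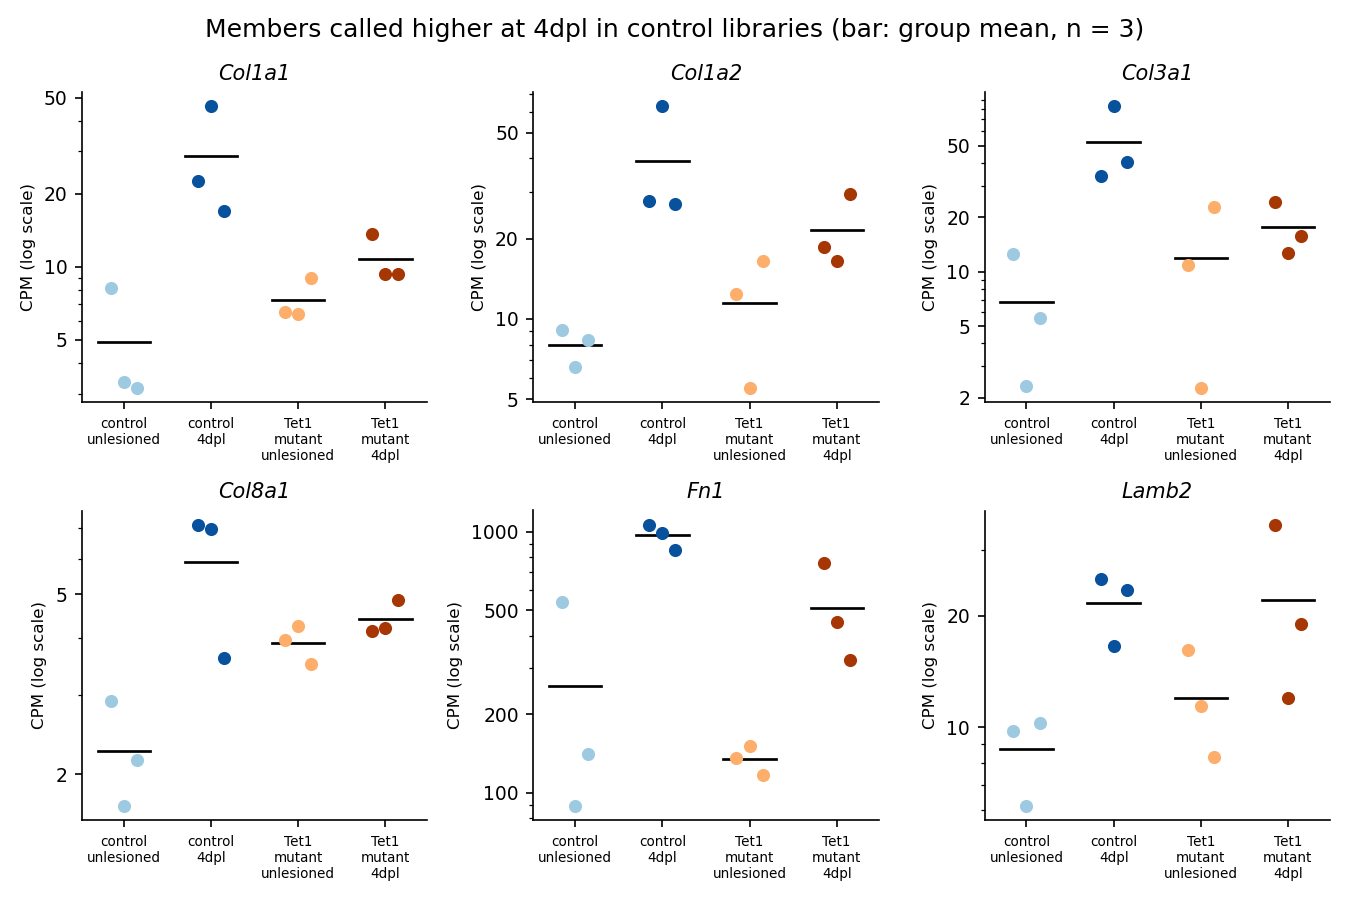
CPM (vertical log axis) in each of the 12 libraries for the 6 members called higher at 4dpl in the control, by group, with bars at group means of 3 libraries. The 3 control 4dpl points lie above the 3 control unlesioned points in all 6 panels, and in the mutant the groups are apart for Col1a1 and Fn1.

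None of the other fibrillar chains was called higher. Of the 11 fibrillar members, 3 were called higher with the genotypes averaged, 1 lower (Col24a1) and 7 in neither direction, with log2 changes between -1.38 and 1.76. Col11a2 was counted at 24.4, 23.1 and 18.99 CPM in unlesioned control, 21.2, 29.5 and 25.96 CPM in control at 4dpl, 37.3, 18.3 and 25.05 CPM in unlesioned mutant and 41.3, 39.1 and 69.2 CPM in mutant at 4dpl. Mutant 4dpl libraries exceeded all other libraries here, replicate 3 most, and the averaged change was 0.55 ± 0.20 (SE, adjusted p = 0.0441), short of the limit on the unadjusted p. Col11a2 is a chain of type XI collagen, a minor fibrillar collagen known from cartilage. Summed per kb over the 11 chains, the level was 11.5, 11.6 and 12.4 in unlesioned control libraries and 16.7, 33.96 and 18.8 in control at 4dpl, against 14.9, 9.17 and 16.2 and 18.99, 14.7 and 22.4 CPM per kb in the mutant. Control 4dpl replicate 2 thus gave the largest sum of the 12.

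Markers of the cells that are usually rich in collagen I and III were not called higher beside them. The marker calls given next average the genotypes, where 14.2% of all genes tested were called higher and 18.6% lower. Of 12 fibroblast markers 11 were tested, 0 were called higher and 3 lower (Slc6a13, Dcn and Ogn) with the genotypes averaged, and their summed level was 13.6 to 26.8 CPM per kb in unlesioned control, 12.1 to 17.4 in control at 4dpl, 17.1 to 29.9 in unlesioned mutant and 12.4 to 22.3 in mutant at 4dpl. Twist1 and Tbx18 were at 0 in at least 1 library, and Dcn, a proteoglycan of fibroblasts, was at 7.85, 2.89 and 10.3 CPM in unlesioned control and 7.54, 5.46 and 8.48 CPM in control at 4dpl, against 21.1, 11.4 and 20.04 CPM in unlesioned mutant and 4.41, 3.17 and 5.97 CPM in mutant at 4dpl, overlapping in the control and apart in the mutant. Mural cell markers gave 0 higher and 2 lower of 10, with sums of 6.35 to 18.4 CPM per kb over the 6 unlesioned and 5.998 to 15.5 over the 6 lesioned libraries, and endothelial markers 0 higher and 1 lower of 10, with 6.43 to 15.5 and 4.91 to 11.1. Microglia and macrophage markers moved with the lesion, 9 of 10 being called higher, with sums of 6679 to 14122 CPM per kb unlesioned and 10224 to 20804 at 4dpl. Of 8 Schwann cell markers 7 were tested, 1 was called higher (Egr2) and 3 lower, Prx and Scn7a among them, with sums of 54.4 to 110.0 CPM per kb unlesioned and 100.4 to 215 at 4dpl and Pmp2 at 0 in at least 1 library. Despite the higher sums, the median log2 change of the Schwann cell markers was -0.68. Their sum was lowest in mutant unlesioned replicate 2 and highest in mutant 4dpl replicate 3. The sum of the mature oligodendrocyte markers was lowest and highest in the same libraries (2510 and 13778 CPM per kb). The part of these cells in the collagen changes was not tested.

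Fibronectin was the highest member by far. Fn1, a glycoprotein that assembles into fibrils and binds integrins (chromosome 1, 71585520 to 71653200), averaged 40.02 CPM per kb over the 12 libraries, and the next member, Col9a3, 9.77. Fn1 stood at 538, 88.6 and 141 CPM in the 3 control unlesioned libraries and at 1067, 988 and 852 CPM in the 3 control 4dpl libraries. The mutant libraries had 136, 151 and 117 CPM unlesioned and 759, 451 and 323 CPM at 4dpl. Both genotypes were separated, and control unlesioned replicate 1 lay above the other 5 unlesioned libraries and above 2 of the 3 mutant 4dpl ones. The log2 change was 1.92 ± 0.53 in the control (SE, adjusted p = 0.0425) and 1.92 ± 0.53 in the mutant (adjusted p = 0.0586), and Fn1 rose 3.79-fold with the genotypes averaged (adjusted p = 0.00423). Without control unlesioned replicate 1 the control change was 3.10 (edgeR's quasi-likelihood test, Benjamini-Hochberg adjusted p = 0.00274). With each library left out in turn, the control change of Fn1 ranged from 1.53 to 3.10. Tnc was counted at 2.59, 3.02 and 2.56 CPM in unlesioned control, 3.16, 8.84 and 4.61 CPM in control at 4dpl, 2.91, 2.91 and 3.06 CPM in unlesioned mutant and 4.21, 2.28 and 0.827 CPM in mutant at 4dpl. Tnc, a glycoprotein of developing and injured nervous tissue, was higher in every control 4dpl library than in the unlesioned ones, while mutant 4dpl libraries lay on both sides of theirs. Neither change passed, at 1.02 ± 0.49 in the control (SE, adjusted p = 0.158) and -0.28 ± 0.49 in the mutant (adjusted p = 0.698).

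Col8a1, a short-chain collagen that forms hexagonal lattices (chromosome 16, 57624258 to 57754737), was called higher in the control and, in levels, stood higher in unlesioned mutant than in unlesioned control libraries. Col8a1 stood at 2.91, 1.700 and 2.15 CPM in the 3 control unlesioned libraries and at 7.13, 6.97 and 3.62 CPM in the 3 control 4dpl libraries. The mutant libraries had 3.96, 4.26 and 3.51 CPM unlesioned and 4.16, 4.21 and 4.85 CPM at 4dpl. The control groups did not overlap, and the mutant groups overlapped. The control change was 1.39 ± 0.33 (log2, SE, adjusted p = 0.0337) and the mutant change 0.17 ± 0.33 (adjusted p = 0.7203). Of the other short-chain members, Col8a2 and Col10a1, 0 were called.

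FACIT collagens, which sit on the surface of fibrils, split in both directions: 1 of 9 was called higher with the genotypes averaged and 3 lower. Col14a1, named here after its values were seen, went up by 0.91 ± 0.26 (SE, adjusted p = 0.0161). Col12a1 was counted at 4.02, 4.12 and 6.51 CPM in unlesioned control, 1.96, 4.53 and 3.18 CPM in control at 4dpl, 4.201, 5.18 and 5.78 CPM in unlesioned mutant and 2.05, 1.45 and 1.097 CPM in mutant at 4dpl. All mutant 4dpl libraries were below the unlesioned ones, whereas control 4dpl replicate 2 was within the control unlesioned range. Its averaged change was -1.16 ± 0.27 (adjusted p = 0.00697), and -1.72 ± 0.39 in the mutant, where it had the smallest p of all members (adjusted p = 0.0522).

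For Col22a1 the control libraries had 1.56, 2.805 and 3.48 CPM unlesioned and 0.682, 0.746 and 0.852 CPM at 4dpl, and the mutant libraries 1.898, 2.59 and 3.49 and 0.705, 0.859 and 0.845 CPM. For Col19a1 the control libraries had 1.03, 2.15 and 3.17 CPM unlesioned and 0.507, 0.832 and 0.852 CPM at 4dpl, and the mutant libraries 1.88, 2.98 and 4.03 and 1.02, 1.13 and 0.665 CPM. For both, every 4dpl library lay below every unlesioned one of the same genotype. Col22a1, a collagen of tissue junctions, fell by 1.75 ± 0.28 on the log2 scale with the genotypes averaged (SE, adjusted p = 0.00265) and was called in the control too (adjusted p = 0.0287). Col19a1, a rare collagen, fell by 1.60 ± 0.33 (adjusted p = 0.00505). The most abundant FACIT chains behaved otherwise, with Col9a3 at 9.77 and Col16a1 at 4.59 CPM per kb over all libraries and averaged changes of 0.54 ± 0.23 (adjusted p = 0.0778) and 0.67 ± 0.31 (adjusted p = 0.0926).

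Laminins are trimers of an alpha, a beta and a gamma chain, and the chains moved apart. Lamb2 stood at 9.79, 6.12 and 10.3 CPM in the 3 control unlesioned libraries and at 25.1, 16.5 and 23.4 CPM in the 3 control 4dpl libraries. The mutant libraries had 16.2, 11.4 and 8.33 CPM unlesioned and 35.2, 11.97 and 18.9 CPM at 4dpl. Control groups were separated and mutant groups overlapped, with replicate 1 highest in the mutant at 4dpl. Lamb2, the beta 2 chain found in vessels and synapses (chromosome 9, 108479736 to 108490530), rose 2.48-fold in the control (1.31 ± 0.38 on the log2 scale, SE, adjusted p = 0.0447) and was at 0.88 ± 0.37 in the mutant (adjusted p = 0.122). For Lamc1 the control libraries had 21.3, 18.5 and 14.7 CPM unlesioned and 14.6, 19.3 and 21.1 CPM at 4dpl, and the mutant libraries 27.8, 9.09 and 18.3 and 31.3, 31.6 and 49.3 CPM. Lamc1, the gamma 1 chain shared by most laminins, had control libraries that overlapped, where its change of 0.01 ± 0.34 (SE) turned to -0.047 with RLE scaling or DESeq2, and its mutant change was 1.02 ± 0.34 (adjusted p = 0.0769). All mutant 4dpl libraries were above the mutant unlesioned ones.

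The beta 1 chain went the other way. Lamb1 was counted at 1.78, 3.04 and 2.403 CPM in unlesioned control, 0.524, 1.803 and 1.04 CPM in control at 4dpl, 2.36, 2.93 and 3.42 CPM in unlesioned mutant and 0.978, 0.752 and 0.683 CPM in mutant at 4dpl. Mutant groups were separated downwards, and in the control the highest 4dpl library just passed the lowest unlesioned one. Lamb1 fell by 1.47 ± 0.31 with the genotypes averaged (log2, SE, adjusted p = 0.00537). Within the genotypes its change was not called, at -1.85 ± 0.45 in the mutant (SE, adjusted p = 0.0544) and -1.10 ± 0.44 in the control (adjusted p = 0.101). Lamb3, the third beta chain, was not called, and the gamma chain Lamc3 was called lower with the genotypes averaged, at -2.003 ± 0.56 (SE).

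All 5 laminin alpha chains had a negative log2 change in both genotypes, and 3 of them were called with the genotypes averaged and in the control. Lama1 was counted at 2.08, 3.76 and 3.81 CPM in unlesioned control, 0.2797, 1.02 and 0.714 CPM in control at 4dpl, 2.56, 3.66 and 3.103 CPM in unlesioned mutant and 0.864, 0.671 and 1.24 CPM in mutant at 4dpl. Lama2 was counted at 3.47, 4.29 and 9.95 CPM in unlesioned control, 0.874, 2.84 and 1.59 CPM in control at 4dpl, 3.998, 4.43 and 5.93 CPM in unlesioned mutant and 1.796, 1.58 and 1.49 CPM in mutant at 4dpl. Lama3 was counted at 2.27, 1.72 and 2.48 CPM in unlesioned control, 0.664, 0.485 and 1.08 CPM in control at 4dpl, 2.58, 2.33 and 2.97 CPM in unlesioned mutant and 2.21, 1.23 and 1.205 CPM in mutant at 4dpl. For these 3 chains every 4dpl library was below every unlesioned one of its genotype. Lama1, an alpha chain of embryonic and pial basement membrane, changed by -2.26 ± 0.48 in the control (SE, adjusted p = 0.0264), Lama2, the chain of muscle, nerve and vessel basement membranes that binds dystroglycan, by -1.74 ± 0.47 (adjusted p = 0.04001), and Lama3, an epithelial chain, by -1.54 ± 0.41 (adjusted p = 0.0389). With each library left out in turn, the control change of Lama2 ranged from -2.24 to -1.12. The ranges were -2.68 to -1.86 for Lama1 and -1.84 to -1.29 for Lama3.

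For Lama4 the control libraries had 1.65, 3.25 and 5.08 CPM unlesioned and 0.962, 2.25 and 2.79 CPM at 4dpl, and the mutant libraries 3.52, 3.98 and 3.78 and 1.77, 2.42 and 1.31 CPM. Lama4, the chain of vessel endothelium, was separated in the mutant and overlapped in the control, and its averaged change of -0.89 ± 0.33 (SE, adjusted p = 0.0424) missed the limit on the unadjusted p. For Lama5 the control libraries had 2.35, 2.74 and 3.15 CPM unlesioned and 0.997, 2.06 and 2.23 CPM at 4dpl, and the mutant libraries 2.08, 8.04 and 6.09 and 5.23, 3.999 and 3.06 CPM. Control unlesioned libraries of Lama5 were above the 4dpl ones and mutant libraries overlapped, with mutant unlesioned replicates 2 and 3 the highest of the 12. Summed over the 5 alpha chains the level was 0.983, 1.32 and 1.93 CPM per kb in unlesioned control, 0.311, 0.693 and 0.699 in control at 4dpl, 1.22, 1.901 and 1.81 in unlesioned mutant and 1.01, 0.832 and 0.709 in mutant at 4dpl, apart in both genotypes.

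Collagen IV, the network collagen of every basement membrane, had 2 chains that fell, Col4a3 and Col4a4, and 4 that were not called. Its genes lie head to head in pairs: on chromosome 8 the spans of Col4a1 (11198423 to 11312826, minus strand) and Col4a2 (11312805 to 11449287, plus strand) share 22 bases, on chromosome 1 Col4a4 and Col4a3 are 71 bases apart, and on the X chromosome Col4a6 and Col4a5 are 1308 bases apart. For Col4a1 the control libraries had 7.14, 5.42 and 10.9 CPM unlesioned and 9.84, 11.4 and 7.97 CPM at 4dpl, and the mutant libraries 8.200, 6.51 and 7.27 and 10.6, 8.72 and 6.42 CPM. For Col4a2 the control libraries had 6.12, 7.16 and 5.39 CPM unlesioned and 4.23, 6.88 and 4.79 CPM at 4dpl, and the mutant libraries 5.62, 6.36 and 9.74 and 7.55, 5.61 and 7.01 CPM. Unlesioned and 4dpl libraries overlapped for both chains in both genotypes, and their averaged changes were 0.27 ± 0.21 (SE, adjusted p = 0.304) and -0.17 ± 0.21 (adjusted p = 0.531). Reads in their shared bases cannot be given to either chain unless strand was used, which the sources do not state.

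Col4a3 was counted at 1.78, 2.49 and 3.03 CPM in unlesioned control, 0.4895, 0.694 and 1.08 CPM in control at 4dpl, 1.71, 1.03 and 3.06 CPM in unlesioned mutant and 0.796, 0.805 and 0.557 CPM in mutant at 4dpl. Col4a4 was counted at 1.67, 2.103 and 2.31 CPM in unlesioned control, 1.15, 0.503 and 0.714 CPM in control at 4dpl, 2.101, 2.19 and 2.31 CPM in unlesioned mutant and 0.796, 1.15 and 0.791 CPM in mutant at 4dpl. Both chains, which build the collagen IV network of kidney and lung, were lower in every 4dpl library than in every unlesioned one of the same genotype. Col4a3 fell by 1.56 ± 0.33 (log2, SE, adjusted p = 0.00541) and Col4a4 by 1.31 ± 0.28 (adjusted p = 0.00519) with the genotypes averaged. At 0.147 and 0.1398 CPM per kb they stood far under Col4a1 (1.12) and Col4a2 (0.963). Col4a5 and Col4a6 were low too, at 0.214 and 0.0649 CPM per kb, and were not called, with averaged changes of -0.07 ± 0.39 (SE, adjusted p = 0.891) and -0.19 ± 0.52 (adjusted p = 0.783).

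Of the 6 chains of collagen VI, the beaded filament around cells, 3 were called lower. Col6a1, Col6a2 and Col6a3, the classical chains, were called in neither direction, with averaged changes of 0.99 ± 0.39, 1.04 ± 0.42 and 0.13 ± 0.28 (SE), while the late-described chains Col6a4, Col6a5 and Col6a6 were all called lower. Col6a6 was counted at 0.958, 1.61 and 1.17 CPM in unlesioned control, 0.105, 0.364 and 0.645 CPM in control at 4dpl, 1.12, 1.78 and 1.18 CPM in unlesioned mutant and 0.432, 0.429 and 0.342 CPM in mutant at 4dpl. Groups were apart in both genotypes, and the averaged change was -1.76 ± 0.40 (SE, adjusted p = 0.00656). All 4 transmembrane collagens, Col13a1, Col17a1, Col23a1 and Col25a1, were called lower with the genotypes averaged. For Col25a1 the control libraries had 2.67, 4.802 and 7.93 CPM unlesioned and 0.682, 1.27 and 1.17 CPM at 4dpl, and the mutant libraries 3.998, 4.35 and 6.02 and 2.16, 1.05 and 1.402 CPM. For Col17a1 the control libraries had 1.33, 1.36 and 1.31 CPM unlesioned and 0.03497, 0.399 and 0.322 CPM at 4dpl, and the mutant libraries 0.7002, 0.806 and 1.02 and 0.5002, 0.403 and 0.539 CPM. The groups of both genes were separated in both genotypes. Of the 3 collagens in no other class, Col7a1 and Col28a1 were called lower, and of the 2 multiplexins, which carry heparan or chondroitin sulfate in basement membranes, 0 were called. Col25a1, a neuronal collagen known from amyloid plaques, had the smallest p of all members (averaged change -1.97 ± 0.31, SE, adjusted p = 0.00258), and Col17a1, a hemidesmosome protein of skin, changed by -2.40 ± 0.63 in the control (SE, adjusted p = 0.03802).

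The members that fell were mostly those with the lowest mean levels over the 12 libraries. The olfactory and vomeronasal receptor genes, known from the nose, give a yardstick for such levels. Pooled over 1428 receptor genes, their level was 0.0612, 0.106 and 0.175 CPM per kb in unlesioned control, 0.0222, 0.0218 and 0.03698 in control at 4dpl, 0.106, 0.1502 and 0.219 in unlesioned mutant and 0.0459, 0.03704 and 0.0175 in mutant at 4dpl. Every 4dpl library was thus below every unlesioned one. Of the 962 receptor genes tested, 0 were called higher and 561 lower (58.3%), with a median log2 change of -2.41.

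By their mean over the 12 libraries, 42 members were above the 95th percentile of the receptor genes (0.2201 CPM per kb) and 19 were at or under it. The 19 gave 0 higher and 15 lower calls with a median log2 change of -1.56, and the 42 gave 7 higher and 6 lower with a median of 0.37. Among all genes tested, 40.03% of those at or under that level were called lower and 0.0341% higher, against 10.1% and 19.8% of those above it. The mean includes the 4dpl libraries, so the change itself partly decides the side, and the calls on each side are partly built in. Over the unlesioned libraries alone, Lama1 and Lama2 (both 0.327 CPM per kb) exceeded Col2a1 (0.263). By the mean they were placed under the line and Col2a1 above it.

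Just above the line stood Col26a1 (0.224 CPM per kb), Lama4 (0.226), Col25a1 (0.241), Col12a1 (0.241) and Col19a1 (0.245), and just below it Lama2 (0.215), Col4a5 (0.214) and Lama1 (0.205). Col7a1 (0.387) and Col23a1 (0.384) were the highest of the members called lower. Library by library, Lama1 had 0.215, 0.388 and 0.394 CPM per kb in unlesioned control, where the receptor genes' 95th percentile was 0.202, 0.336 and 0.538, and 0.0289, 0.106 and 0.0737 in control at 4dpl, where it was 0.107, 0.1001 and 0.129. Col4a3 was under that percentile in all 12 libraries, whereas Fn1, Lamb2 and Lamc1 were above it in all 12, Col1a1 and Col1a2 in 11 and Col3a1 in 10. What lowers the receptor genes at 4dpl, and its part in the falls of low members, was not tested.

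**Figure D3:**
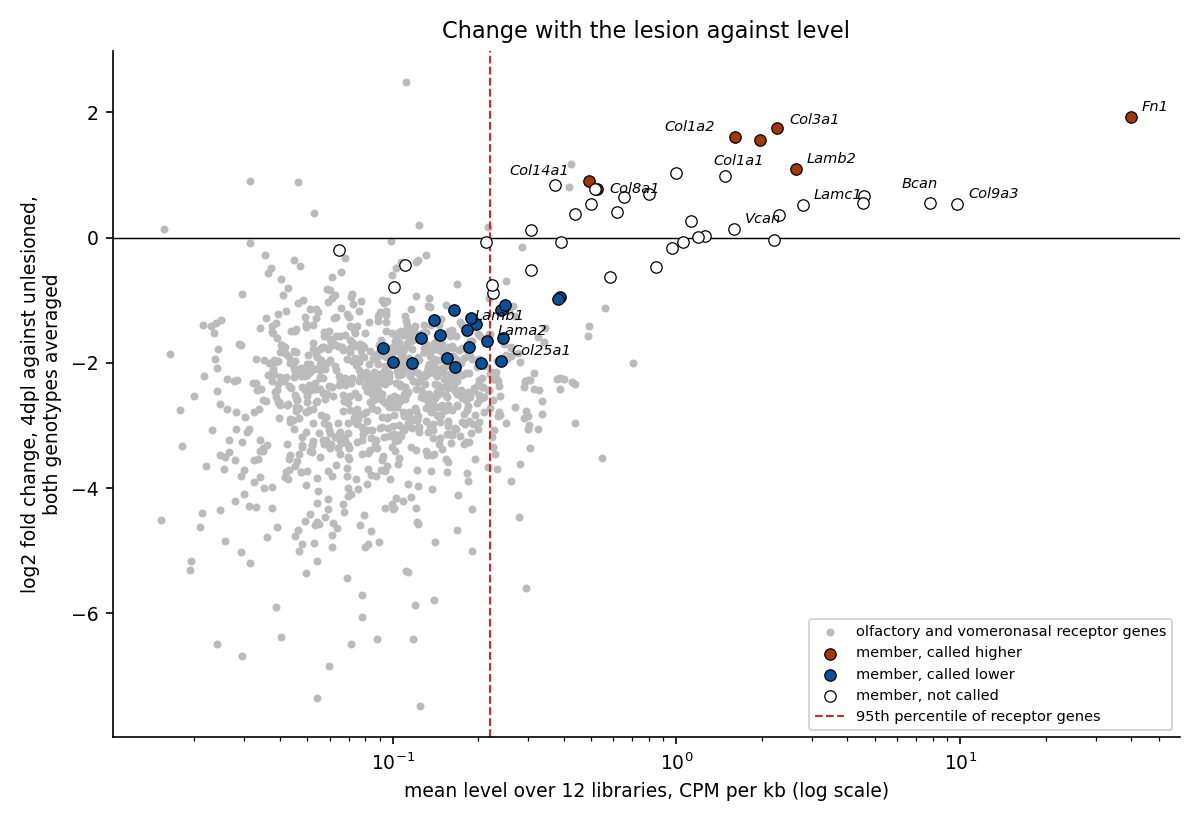
Log2 fold change at 4dpl against unlesioned with both genotypes averaged (vertical axis) against the mean level over 12 libraries in CPM per kb (horizontal log axis) for the 61 members, coloured by call, and for the tested olfactory and vomeronasal receptor genes (grey). The 21 members called lower lie at the left, 15 of them left of the dashed line at the receptor genes' 95th percentile, and the 7 called higher all lie right of it.

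**Figure D4:**
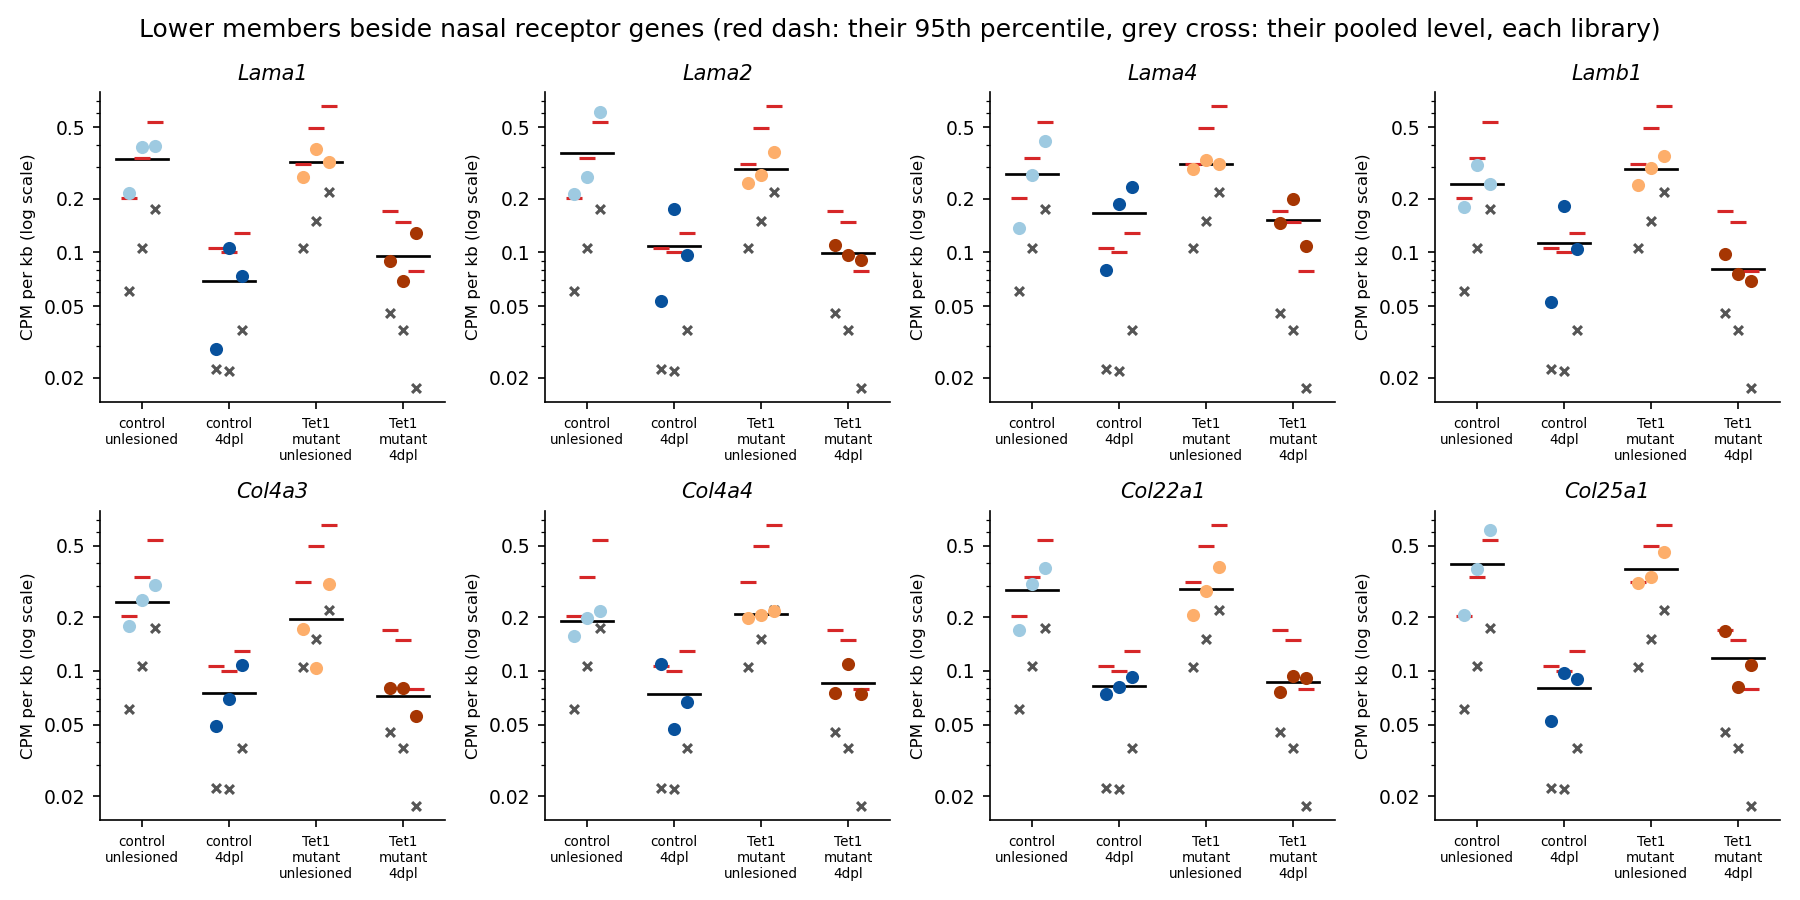
CPM per kb (vertical log axis) of 8 low members in each of the 12 libraries, with bars at group means of 3, beside the 95th percentile (red dash) and the pooled level (grey cross) of the receptor genes in the same library. Members and receptor levels are both lower at 4dpl, and the members lie above the pooled receptor level in nearly all libraries and around or under its 95th percentile in most.

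None of the 4 lecticans was called with the lesion. Bcan was counted at 16.7, 26.2 and 23.5 CPM in unlesioned control, 20.1, 32.1 and 46.3 CPM in control at 4dpl, 45.5, 16.8 and 26.4 CPM in unlesioned mutant and 30.5, 29.98 and 68.5 CPM in mutant at 4dpl. Bcan, a lectican made by astrocytes and oligodendrocyte progenitors, was at 7.85 CPM per kb next below Col9a3, and mutant 4dpl replicate 3 had its highest value. Ncan was counted at 2.39, 3.06 and 3.17 CPM in unlesioned control, 4.14, 4.300 and 7.44 CPM in control at 4dpl, 6.799, 3.69 and 4.21 CPM in unlesioned mutant and 4.98, 2.68 and 6.36 CPM in mutant at 4dpl. For Ncan the control groups were apart, the change being 0.88 ± 0.38 (SE, adjusted p = 0.125), and the mutant groups overlapped (-0.07 ± 0.38, adjusted p = 0.914). Acan was counted at 0.413, 1.06 and 1.04 CPM in unlesioned control, 0.262, 0.728 and 1.11 CPM in control at 4dpl, 1.31, 0.806 and 1.09 CPM in unlesioned mutant and 0.364, 0.698 and 1.04 CPM in mutant at 4dpl. Acan, the large proteoglycan of perineuronal nets and cartilage, was at 0.111 CPM per kb, within the receptor genes' range, and its groups overlapped in both genotypes.

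Vcan stood at 19.05, 17.7 and 24.5 CPM in the 3 control unlesioned libraries and at 23.9, 32.8 and 38.00 CPM in the 3 control 4dpl libraries. The mutant libraries had 25.6, 19.6 and 23.1 CPM unlesioned and 17.5, 19.4 and 16.3 CPM at 4dpl. Vcan, a proteoglycan of oligodendrocyte progenitors and growing tissue (chromosome 13, 89655312 to 89742509), had 4dpl libraries that met the unlesioned range in the control and lay under it in the mutant. Neither change was called, at 0.63 ± 0.23 in the control (SE, adjusted p = 0.0783) and -0.36 ± 0.23 in the mutant (adjusted p = 0.258). An overlapping gene on the other strand, Gm4117, had 3420 counts in all beside 13864 for Vcan, and without a stated strand setting their reads cannot be told apart. In all, 38 members share bases with another annotated gene. Some opposite-strand neighbours had many more counts than the member, as for Lamb3 (2303, beside 99853 for G0s2 and 58740 for Hsd11b1). Others were Nt5dc1 (13443) beside Col10a1 (193) and Slc19a1 (8451) beside Col18a1 (3417). The part of such neighbours in the members' values was not tested. The summed markers of oligodendrocyte progenitors were 17.2 to 20.4 CPM per kb in unlesioned control, 21.7 to 56.4 in control at 4dpl, 26.6 to 50.00 in unlesioned mutant and 31.4 to 70.4 in mutant at 4dpl, and those of astrocytes were 45.6 to 53.3, 79.4 to 151, 54.6 to 75.6 and 78.4 to 158 in the same order, apart in both genotypes, with 2 of 10 astrocyte markers called higher and 0 lower. Of 8 oligodendrocyte progenitor markers, 4 were called higher and 0 lower with the genotypes averaged (background 14.2% higher). Tested within the control, 4 were again called higher (background 5.12%), and the median log2 change of the 8 was 1.31. For the mutant that median was 0.25 and 0 were called, where 0.0225% of all genes were called higher. The part of both cell types in the lectican levels was not tested.

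**Figure D5:**
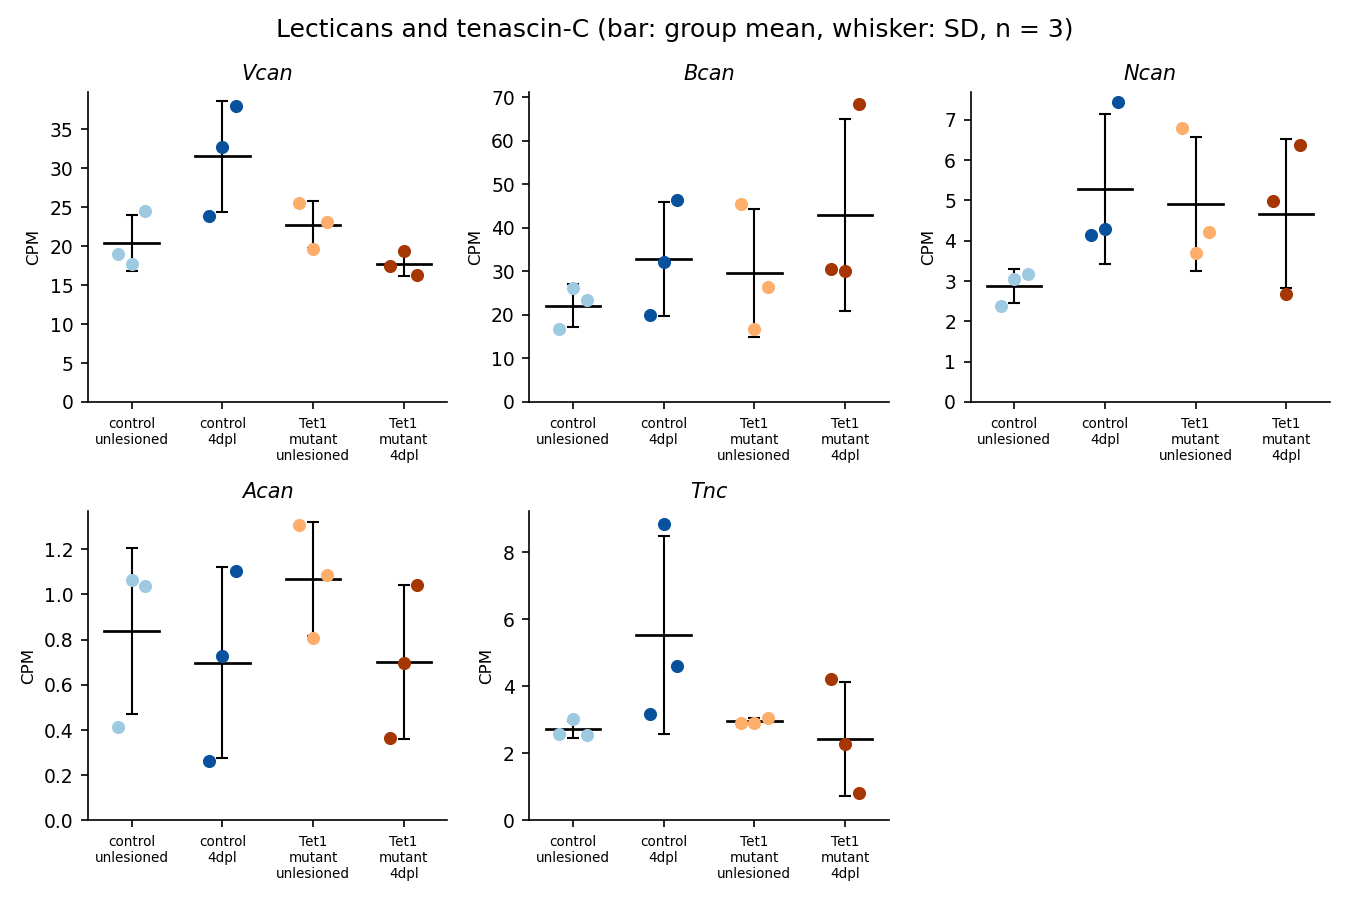
CPM (vertical axis, from 0) of the 4 lecticans and Tnc in each of the 12 libraries by group, with bars at group means and whiskers of 1 SD (3 libraries). The 3 mutant 4dpl values of Vcan lie under the 3 control 4dpl values, and Bcan and Ncan spread widely within groups.

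Between the genotypes 0 members were called, unlesioned (background 0% of genes) or at 4dpl (background 0%), and 0 in the interaction, which tests whether the change with the lesion differs between genotypes (background 0%). At an unadjusted p under 0.05 there were 2 members unlesioned (3.28%, background 5.22%), 12 at 4dpl (19.7%, background 6.92%) and 5 in the interaction (8.197%, background 3.81%). DESeq2 called 1 member at 4dpl, Vcan (background 0.736%), 0 unlesioned (background 0.141%) and 0 in the interaction (background 0%).

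At 4dpl the 12 divided into 6 higher and 6 lower in the mutant, where all genes at an unadjusted p under 0.05 gave 1602 higher and 551 lower. Vcan, with 31.6 ± 7.13 CPM in the control and 17.7 ± 1.56 CPM in the mutant (SD, n = 3), had the smallest p (log2 difference -0.83 ± 0.23, SE, adjusted p = 0.3103). Col1a1 followed, with 28.6 ± 15.4 and 10.8 ± 2.48 CPM (SD, n = 3) and a difference of -1.40 ± 0.41 (SE, adjusted p = 0.371). Col11a2 differed the other way, 25.5 ± 4.15 against 49.9 ± 16.8 CPM (SD, n = 3), by 0.97 ± 0.29 (SE, adjusted p = 0.375). For these 3 the libraries of the genotypes did not overlap at 4dpl, and none of the differences passed the adjustment.

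Unlesioned, the smallest p belonged to Col9a2, a cartilage collagen chain. Col9a2 was counted at 2.57, 2.51 and 2.13 CPM in unlesioned control, 2.24, 2.31 and 5.02 CPM in control at 4dpl, 5.69, 4.26 and 6.91 CPM in unlesioned mutant and 3.57, 3.09 and 6.49 CPM in mutant at 4dpl. Unlesioned mutant libraries were all above the unlesioned control ones, by 1.22 ± 0.40 on the log2 scale (SE, adjusted p = 0.727). Col8a1 came next, 2.25 ± 0.612 CPM in the control and 3.91 ± 0.376 CPM in the mutant (SD, n = 3, log2 difference 0.79 ± 0.33, SE, adjusted p = 0.904), then Lama5 (0.98 ± 0.46, adjusted p = 0.9498). None of the 3 passed.

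In the interaction all 5 members with an unadjusted p under 0.05 had the lower log2 change in the mutant: Col1a1 (-1.98 ± 0.58, log2, SE), Vcan (-0.99 ± 0.32), Col8a1 (-1.22 ± 0.47), Col3a1 (-2.38 ± 0.95) and Col1a2 (-1.39 ± 0.57). Among all genes at that limit, 356 had the lower change in the mutant and 828 the higher. Every adjusted p in the interaction was 1 after rounding, by edgeR's quasi-likelihood test. The change of collagens I and III was thus called in the control and not in the mutant, and the difference between the genotypes did not pass the adjustment.

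Genes that make, fold and bind these proteins are given from lists chosen by function, as log2 changes with the genotypes averaged, and are read beside the same background of 14.2% higher and 18.6% lower. Collagen folding and crosslinking gave 10 higher and 2 lower of 30. The 3 with the smallest p were Crtap, part of the prolyl 3-hydroxylation complex, at 1.16 ± 0.19 (SE, adjusted p = 0.00265), Ppib, a proline isomerase, at 0.85 ± 0.14 (SE, adjusted p = 0.00268), and Loxl3, a lysyl oxidase that crosslinks collagen, at 1.16 ± 0.20 (SE, adjusted p = 0.00317). Serpinh1, the collagen chaperone HSP47, was called too, at 1.32 ± 0.27 (SE, adjusted p = 0.00474), with means of 5.94 ± 2.06 CPM in unlesioned control and 21.8 ± 9.24 CPM in control at 4dpl (SD, n = 3), and is named outside the rule of 3. Chondroitin sulfate synthesis gave 7 higher and 1 lower of 21, led by B4galt7, which adds the first galactose of the linker, at 1.14 ± 0.18 (SE, adjusted p = 0.002597), Dse, which turns chondroitin into dermatan sulfate, at 1.75 ± 0.30 (SE, adjusted p = 0.00298), and Xylt2, which starts the chain, at 1.22 ± 0.23 (SE, adjusted p = 0.00367).

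Receptors for collagen and laminin gave 4 higher and 3 lower of 16, including dystroglycan, Dag1, at 1.25 ± 0.24 (SE, adjusted p = 0.00395), integrin alpha 6, Itga6, at 1.15 ± 0.22 (SE, adjusted p = 0.00418), and integrin beta 1, Itgb1, at 1.34 ± 0.28 (SE, adjusted p = 0.00494). Those for fibronectin and tenascin gave 3 higher and 1 lower of 12: Sdc4, a syndecan, at 0.93 ± 0.20 (SE, adjusted p = 0.00567), Itga5, the alpha chain of the fibronectin receptor, at 1.47 ± 0.32 (SE, adjusted p = 0.00574), and Itgb6 at -2.21 ± 0.54 (SE, adjusted p = 0.00833). Basement membrane partners gave 3 higher and 3 lower of 16, with Frem1 at -1.43 ± 0.31 (SE, adjusted p = 0.00559), the nidogen Nid2 at 1.26 ± 0.28 (SE, adjusted p = 0.00605) and the fibulin Fbln2 at 1.52 ± 0.38 (SE, adjusted p = 0.00891). Perineuronal net and link proteins gave 1 higher and 3 lower of 14, with the tenascins Tnn at -2.45 ± 0.37 (SE, adjusted p = 0.002199) and Tnxb at -1.48 ± 0.29 (SE, adjusted p = 0.004498), and Cspg4, the NG2 proteoglycan and a progenitor marker, at 1.49 ± 0.32 (SE, adjusted p = 0.00533). Small leucine-rich proteoglycans gave 1 higher and 4 lower of 11, with biglycan (Bgn) at 1.56 ± 0.36 (SE, adjusted p = 0.00731), Epyc at -2.73 ± 0.67 (SE, adjusted p = 0.00853) and Omd at -2.11 ± 0.52 (SE, adjusted p = 0.008901).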

How the data were processed

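RNA-seq libraries were made from oligodendroglial-enriched preparations of 12 samples, 4 groups of 3. The authors deposited raw counts per Ensembl gene for GRCm38, whole numbers without normalisation, made with featureCounts from reads aligned to mm10. The aligner is BWA in the study's methods and STAR in the submitters' processing notes, and no strand setting is given in the sources used here. The members and the lists were chosen with earlier results of these data known.

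All 12 libraries were fitted in edgeR 4.0.16 (R 4.3.3) with TMM scaling, filterByExpr and 4 group means, and tested with edgeR's quasi-likelihood test. Calls needed p under 0.01 and a Benjamini-Hochberg adjusted p under 0.05 over the 31109 genes tested. SE was taken from the log2 fold change and its F. The test was also run on simulated data, and the outcome is not given here. Alternatives used DESeq2 1.42.0 and limma 3.58.1 (voom), RLE scaling, other filters and limits, a block by replicate number and leaving out each library. Receptor genes were added as a reference level after seeing the data.

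Values in every library are given for members called in a comparison (at most the 12 with the smallest p in each), the 3 with the smallest p in a comparison without calls, Fn1, Tnc, the lecticans and 10 main chains. From each other list at most the 3 called genes with the smallest p are named. Some genes are not reported here by name. All 37 mitochondrial genes are at 0 in the count tables. Depth was 34805086 to 67251544 counts.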

Additional observations from a re-analysis of the deposited data

How the results depend on the processing

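Counts of members called depended on single libraries and on the tool. With the genotypes averaged, 7 members were called higher, 12 with no filter on low counts, 17 at an adjusted p under 0.10 with no limit on p, and 5 to 13 when each library was left out. Over all genes the averaged higher calls went from 4423 to 5351 with no filter. The 21 called lower became 6 when only members above the receptor genes were counted, an alternative added after seeing the data, and 17 to 22 with a library left out. The level in that alternative is the mean over all 12 libraries, which a fall at 4dpl lowers, so fewer lower calls are partly built in. In the control, 6 were called higher, 10 at the looser limit and 0 to 6 with a library left out. The 8 lower became 17 with DESeq2, 3 with edgeR on the groups compared only, 5 with no filter, 19 with voom, 16 at the looser limit, 1 above the receptor genes, and 0 to 14 with a library left out. The lower calls over all genes in the control went from 1558 to 4376 with DESeq2 and 4827 with voom. They were 549 on the groups compared only and 1593 with no filter. In the mutant, where edgeR's quasi-likelihood test called 0, DESeq2 called 1 higher and 14 lower, the groups compared only 1 and 5, no filter 1 and 2, voom 6 and 14, edgeR with legacy=FALSE 1 and 13, the looser limit 4 and 14, and leaving out a library 0 to 6 and 0 to 10. Higher and lower calls over all genes in the mutant were 7 and 35 by the main test and 1333 and 3962 with DESeq2. They were 40 and 732 on the groups compared only and 317 and 630 with no filter. With voom they were 3495 and 3305, and with legacy=FALSE 1374 and 3054. No count over all genes is given here for the looser limit. The causes were not tested.

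Between genotypes at 4dpl DESeq2 called 1 member, Vcan. Unlesioned and in the interaction 0 were called under all alternatives run. The other matrix genes, in lists of 30, 21, 16, 12, 16, 14 and 11, gave 29 higher and 17 lower with the genotypes averaged. At the looser limit they gave 46 and 26. The background at the main limit was 14.2% higher and 18.6% lower. Members with separated groups in the mutant went from 10 higher to between 10 and 17 with a library left out, fewer libraries being easier to separate. The fit on the groups compared only gives no value for averaged genotypes or the interaction.

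The direction turned only for small changes without a call. Col8a1 in the mutant was -0.056 on the groups compared only, and Lamc1 in the control -0.047 with DESeq2, -0.057 on the groups compared only and -0.047 with RLE scaling. With a library left out, log2 changes ranged from -0.73 to 0.15 for Acan and -0.11 to 0.17 for Lamc1 in the control, and from -0.23 to 0.18 for Col4a2, -0.33 to 0.27 for Ncan and -0.91 to 0.16 for Tnc in the mutant. RLE scaling moved the median of all genes by -0.10 with the genotypes averaged and by -0.14 in the mutant.

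With the replicate number as a block, 9 members were called higher and 20 lower with the genotypes averaged, 6 and 9 in the control and 0 in the mutant. Deviations of same-numbered libraries correlated at 0.189, 0.052 and 0.189 in the control, where each library correlated best with its own number, and at -0.03, 0.073 and -0.07 in the mutant, so the numbers were not taken to pair the samples. The block used the numbers of the labels, and the study's own sample list numbers some of these libraries differently.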
